A study of Mus musculus with 100 samples.

Results

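The expression of 10 genes of the IL-1 family and its activating machinery was followed in mouse knee joints. They are the ligands Il1a, Il1b, Il33 and Il18, the receptor antagonist Il1rn, the receptors and receptor subunits Il1r1, Il1r2, Il1rap and Il1rl1, and the inflammasome sensor Nlrp3. They were taken by symbol from a table of read counts, which held all 10 of them among 17310 genes tested. Expression was measured by RNA sequencing of poly(A) RNA from whole knee joints, cut so that traces of soft tissue remained, in 100 libraries that form 21 groups of 4 or 5. Mice of the inbred strains MRL/MpJ, C57BL/6 and STR/ort were 10 weeks old when their right knee was loaded in compression with 10 to 12 N. This load ruptures the anterior cruciate ligament and is used as a model of post-traumatic osteoarthritis (PTOA). The labels rate MRL/MpJ as not susceptible and STR/ort as highly susceptible to PTOA. Joints at 0-day came from mice without injury. After injury, the injured right knee and the contralateral knee, the uninjured control, were taken at 1-day, at 1-week or at 2-weeks. All injured mice were anesthetized with isoflurane and given buprenorphine, so contralateral joints come from mice with an injury, anesthesia and analgesia, and no loaded but unruptured group was used here. The labels tie injured and contralateral joints to the same animals at 2-weeks only, and p-values measure the spread between libraries.

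IL-1α and IL-1β signal through the receptor IL1R1 together with the shared subunit IL1RAP, whereas IL-1RA, the product of Il1rn, occupies the same receptor without signaling and IL1R2 is a decoy that captures ligand. IL-33 is stored in the nucleus of stromal and endothelial cells, is released when cells are damaged, and signals through ST2, the product of Il1rl1, again with IL1RAP. IL-1β and IL-18 are made as precursors that are cut by caspase-1 once an inflammasome such as that of NLRP3 has formed, so that transcript levels of these genes do not give the amount of active cytokine. In joints, IL-1 is known for inducing matrix-degrading enzymes, prostaglandin synthesis and chemokines in synovial cells and chondrocytes.

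The transcription start regions of the 4 members called higher in injured than in contralateral joints are shown from RefSeq (GRCm38.p6), each as 300 bases from 250 before the annotated start to 49 after it, in the direction of transcription. Capitals mark matches to TATAAA or to TTGCNNAA, a C/EBP-type motif. Il33, Il1rl1 and Il1r1 have 2 annotated starts each, and the region with a TTGCNNAA match was chosen for each. Of the regions not shown, that of Il33 held TATAAA at -203 to -198, that of Il1r1 an NF-kB match and that of Il1rl1 none of the motifs searched.
Il1b, chr2:129371090-129371389, minus strand: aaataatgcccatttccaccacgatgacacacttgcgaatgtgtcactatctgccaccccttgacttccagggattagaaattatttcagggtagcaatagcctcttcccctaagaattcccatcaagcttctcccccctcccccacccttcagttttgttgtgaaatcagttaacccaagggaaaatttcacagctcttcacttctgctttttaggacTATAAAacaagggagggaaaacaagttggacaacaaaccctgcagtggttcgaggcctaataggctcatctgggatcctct
Il33, second annotated start, chr19:29945540-29945839, plus strand: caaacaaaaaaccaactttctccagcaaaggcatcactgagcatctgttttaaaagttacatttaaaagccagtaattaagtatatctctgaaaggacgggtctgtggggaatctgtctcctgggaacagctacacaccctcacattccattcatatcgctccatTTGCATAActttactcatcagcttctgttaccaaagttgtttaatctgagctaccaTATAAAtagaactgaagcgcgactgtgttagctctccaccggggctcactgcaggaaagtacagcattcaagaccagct
Il1rl1, first annotated start, chr1:40429320-40429619, plus strand: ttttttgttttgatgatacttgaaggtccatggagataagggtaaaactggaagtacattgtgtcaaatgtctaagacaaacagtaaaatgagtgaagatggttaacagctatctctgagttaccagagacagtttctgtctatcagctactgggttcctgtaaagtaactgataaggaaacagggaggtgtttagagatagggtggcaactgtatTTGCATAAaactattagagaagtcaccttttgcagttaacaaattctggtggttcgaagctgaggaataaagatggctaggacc
Il1r1, first annotated start, chr1:40224830-40225129, plus strand: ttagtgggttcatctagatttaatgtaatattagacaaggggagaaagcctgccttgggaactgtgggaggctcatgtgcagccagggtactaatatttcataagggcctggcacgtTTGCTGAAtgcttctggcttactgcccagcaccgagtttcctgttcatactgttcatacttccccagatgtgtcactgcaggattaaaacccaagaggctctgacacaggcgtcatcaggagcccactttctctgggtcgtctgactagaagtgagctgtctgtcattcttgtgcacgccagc
Il33 and Il1rl1 held the same 8 bases TTGCATAA, at -85 to -78 and at -34 to -27 from the start, and Il1r1 held TTGCTGAA at -133 to -126. Il1b and Il33 had TATAAA at -31 to -26 and at -29 to -24. Both strands of the 16 start regions annotated for the 10 members were searched for 4 motifs. TTGCNNAA was found in 3 of 16 against 10.8% of 32851 start regions in all, TATAAA in 6 of 16 against 13.6%, the AP-1 motif TGANTCA in 2 of 16, those of Il1a and Il1rn, against 7.81%, and an NF-kB motif in 2 of 16, those of Il1r1 and Nlrp3, against 8.46%. These matches describe the letters only, and no binding was measured.

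The members lie on 6 chromosomes. Il1r2, Il1r1 and Il1rl1 lie on chromosome 1 within 40084692 to 40465418 (build GRCm38). Il1a, Il1b and Il1rn are on chromosome 2 (Il1a at 129299609 to 129310186, Il1b at 129364569 to 129371164 and, far from both, Il1rn at 24336860 to 24351491). Il33 is on chromosome 19 (29925113 to 29960718), Il18 on chromosome 9 (50554700 to 50581841), Nlrp3 on chromosome 11 (59541569 to 59566955) and Il1rap on chromosome 16 (26581509 to 26730128). Levels are given as CPM, read counts relative to the library total after TMM scaling over all libraries, and are compared between genes only per kilobase of exon. On that scale the median over all libraries was highest for Il1b, at 10.3 CPM per kb, followed by Il1rn at 7.92, Il18 at 7.65 and Il1r1 at 7.04. It was lowest for Il1rap at 1.66 and Il1a at 2.60. The lowest raw count of any member in any library was 13, for Il1a, so the members with few reads, Il1a, Il33, Il1r2 and Il18, carry more counting error than Il1r1 or Il1rn.

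Total counts ranged from 6182016 to 20986027 per library (median 10582592). In the labels, batch 1 holds 70 libraries (0-day to 1-week) and batch 2 the 30 of 2-weeks, so the batch cannot be told apart from the time at 2-weeks and tests there were made only within 2-weeks. Markers of cartilage, bone and synovial fibroblasts were present in all groups, with group means of the summed level from 2079 to 6490 CPM for 7 of 7 cartilage markers and from 669 to 3313 CPM for 5 of 5 bone markers. The libraries also held skeletal muscle (group means from 18070 to 71480 CPM for 6 of 6 markers) and marrow-type neutrophil transcripts (from 10420 to 18400 CPM for 10 of 10 markers). In such bulk samples, fewer cells of a type and less RNA per cell cannot be told apart. Of the 6 skin markers 2 were in the table, with Krtdap at 0 in 56 libraries.

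Within the 15 groups of batch 1, the widest range of group means was that of Il33, from 5.07 CPM in contralateral MRL/MpJ joints to 31.4 CPM in injured STR/ort joints, both at 1-week, a ratio of 6.19. Il1b followed with a ratio of 4.6, its highest mean being in injured STR/ort joints at 1-day. Il1rl1 (3.99) and Il1r1 (3.56) were highest in injured STR/ort joints at 1-week, and Il1a (3.94) in contralateral STR/ort joints at 1-day. The ratios of Il1r2 (2.78), Il1rn (2.15), Nlrp3 (2.11) and Il18 (1.69) were smaller, and that of Il1rap the smallest, from 16.02 to 23.3 CPM (1.46). Il1r2, Nlrp3, Il18 and Il1rap were all lowest in uninjured STR/ort joints at 0-day. Within the 6 groups of 2-weeks the ratio was again largest for Il33 (3.45), followed by Il1a (2.22), and lay between 1.24 and 1.87 for the other 8 members. When all 21 groups were ordered by mean, an order that mixes the batches, neighbors in the order nearly always overlapped. Of 20 neighboring pairs for each gene, 1 did not overlap for Il1r1 (STR/ort over MRL/MpJ, injured at 1-day), Il1r2, Il1rl1 and Nlrp3, and 0 for the other 6 members.

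To compare uninjured joints of the strains, the 4 libraries of each strain at 0-day were set against each other by the quasi-likelihood test of edgeR, with calls made at a fold change above 1.5 and a p below 0.05 after Benjamini-Hochberg adjustment over all genes. STR/ort joints had higher Il1b than both other strains and higher Il1a than C57BL/6, together with lower Il18 and Nlrp3 than both. In all, 5 of 10 members were called between STR/ort and C57BL/6 (13.8% of all genes), 3 between STR/ort and MRL/MpJ (14.8%) and 2 between C57BL/6 and MRL/MpJ (15.9%). The last count is close to the share over all genes, 2 of 10 against 15.9%. These 3 comparisons share libraries.

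Il1b, which encodes the secreted ligand IL-1β, was at 50.4, 43.8, 34.6 and 37.7 CPM in the 4 STR/ort libraries, numbered 1 to 4 in this order. In C57BL/6 it was at 27.2, 19.8, 19.3 and 18.4 CPM and in MRL/MpJ at 12.2, 17.8, 18.4 and 17.2 CPM. No library of the other two strains reached the lowest STR/ort library (log2 fold change 0.94, SE 0.14, adjusted p = 4.43e-05 against C57BL/6; 1.37, SE 0.15, adjusted p = 1.07e-06 against MRL/MpJ). Il1a, which is active without processing, averaged 9.39 ± 0.983 CPM in STR/ort, 4.24 ± 0.485 CPM in C57BL/6 and 6.46 ± 0.589 CPM in MRL/MpJ (SD, n = 4 each). All 4 STR/ort libraries exceeded all others, and the call was reached against C57BL/6 (log2 fold change 1.11, SE 0.14, adjusted p = 7.52e-06), while against MRL/MpJ the log2 fold change was 0.55 (adjusted p = 0.00468), under the fold threshold. The antagonist gene Il1rn was at 51.1 ± 1.92 CPM in MRL/MpJ, 47.4 ± 4.24 CPM in STR/ort and 38.4 ± 6.57 CPM in C57BL/6 and was called in 0 of the 3 comparisons (log2 fold change -0.37, adjusted p = 0.00618 for C57BL/6 against MRL/MpJ).

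The decoy receptor gene Il1r2 was at 4.56, 4.38, 4.59 and 4.54 CPM in STR/ort and at 10.5, 9.49, 9.68 and 10.9 CPM in C57BL/6, so STR/ort lay lower without overlap (log2 fold change -1.20, SE 0.16, adjusted p = 1.74e-05). It was also higher in C57BL/6 than in MRL/MpJ (log2 fold change 0.67, adjusted p = 0.00269), where without MRL/MpJ replicate 1 the fold fell below the threshold (0.50). Nlrp3 was at 7.08, 6.75, 7.31 and 6.75 CPM in STR/ort and between 10.7 and 14.3 CPM in all 8 libraries of the other strains (log2 fold change -0.94, adjusted p = 1.54e-05 against C57BL/6 and -0.81, adjusted p = 9.77e-05 against MRL/MpJ). Il18 followed the same order, at 6.30 ± 0.937 CPM in STR/ort and 9.76 CPM in both other strains (log2 fold change -0.66 against C57BL/6 and -0.62 against MRL/MpJ). The Il18 call against C57BL/6 was lost with 1 RUVg factor, a covariate for unwanted variation (-0.54, adjusted p = 0.0532), and that against MRL/MpJ without MRL/MpJ replicate 2 or STR/ort replicate 3 or 4 (-0.51 to -0.58). Il33 was higher in C57BL/6 (7.94 to 9.52 CPM) than in MRL/MpJ (4.83 to 6.20 CPM; log2 fold change 0.68, SE 0.15, adjusted p = 0.00162). Il1r1, Il1rap and Il1rl1 were called in 0 of the 3 comparisons, with log2 fold changes from -0.31 to 0.18.

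**Figure D1:**
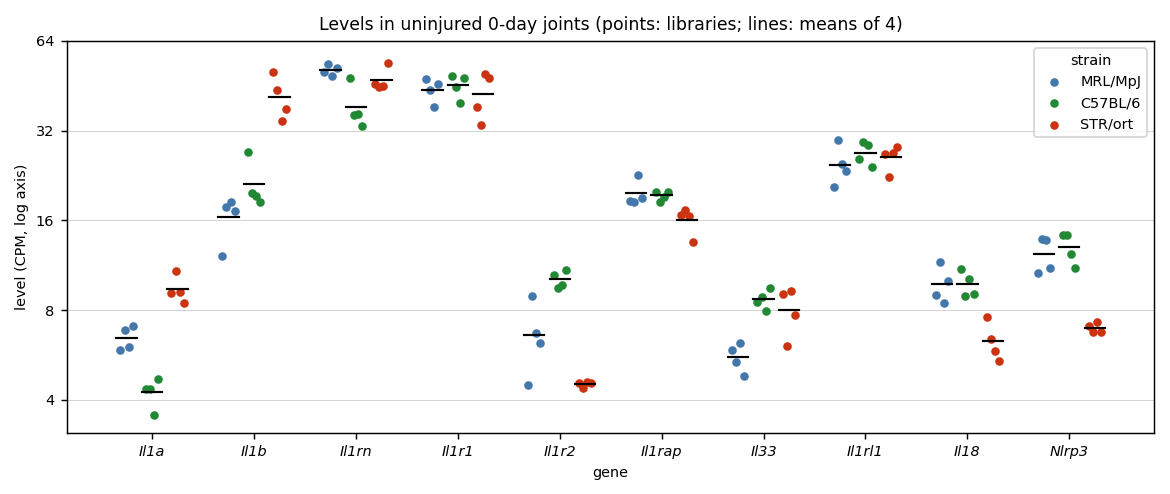
Levels of the 10 members in uninjured joints at 0-day, in CPM on a log axis, with a point for each of 4 libraries per strain and a line at the mean. The 4 STR/ort libraries lie above the other 8 for Il1a and Il1b and below them for Il18 and Nlrp3, while the strains overlap for Il1r1 and Il1rl1.

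Summed neutrophil markers were lowest in STR/ort at 0-day, at 13020 CPM (from 12040 to 14320) against 15740 CPM (from 14180 to 17410) in C57BL/6 and 17120 CPM (from 15250 to 18270) in MRL/MpJ, and the T cell markers were lowest too, with 39.5 CPM (from 35.9 to 43.5) against 61.9 CPM (from 57.05 to 66.2) and 75.7 CPM (from 71.4 to 78.1). The fibroblast markers were at 26530 CPM (from 23760 to 30940) in C57BL/6 against 14730 CPM (from 12830 to 16170) in MRL/MpJ and the muscle markers at 39000 CPM (from 29380 to 47420) against 71480 CPM (from 64260 to 77960), both without overlap, as Il33 was. The part of these cells in the differences between strains was not tested. When 2 factors of unwanted variation estimated from the 25 housekeeping genes of the study (RUVg) were added as covariates, 5 of the 10 calls at 0-day were lost, those of Il18 against C57BL/6 (-0.88, adjusted p = 0.0801) and MRL/MpJ (-0.42, adjusted p = 0.0977), of Il1b between STR/ort and C57BL/6 (0.62, adjusted p = 0.184) and of Il1r2 (0.93, adjusted p = 0.376) and Il33 (0.30, adjusted p = 0.824) between C57BL/6 and MRL/MpJ.

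To follow the response to injury, injured joints were compared with contralateral joints in each strain and at each time. Il33 was the member that rose most widely, in 8 of 9 comparisons, followed by Il1r1 in 5, Il1rl1 in 3 and Il1b in 2, and 0 calls were decreases. At 1-day, 1 of 10 members was called in MRL/MpJ, 3 in C57BL/6 and 4 in STR/ort, against 2.02%, 5.6% and 4.31% of all genes. At 1-week the counts were 1, 2 and 3 against 3.13%, 5.82% and 9.21%, and at 2-weeks 0, 1 and 3 against 1.16%, 2.95% and 4.66%. With 10 members, a single call is 10%, so the counts of 1 in MRL/MpJ rest on Il33 alone. In MRL/MpJ at 2-weeks, edgeR gave 0 calls, 0 members with an unadjusted p below 0.05, and DESeq2 gave 0 calls.

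**Figure D2:**
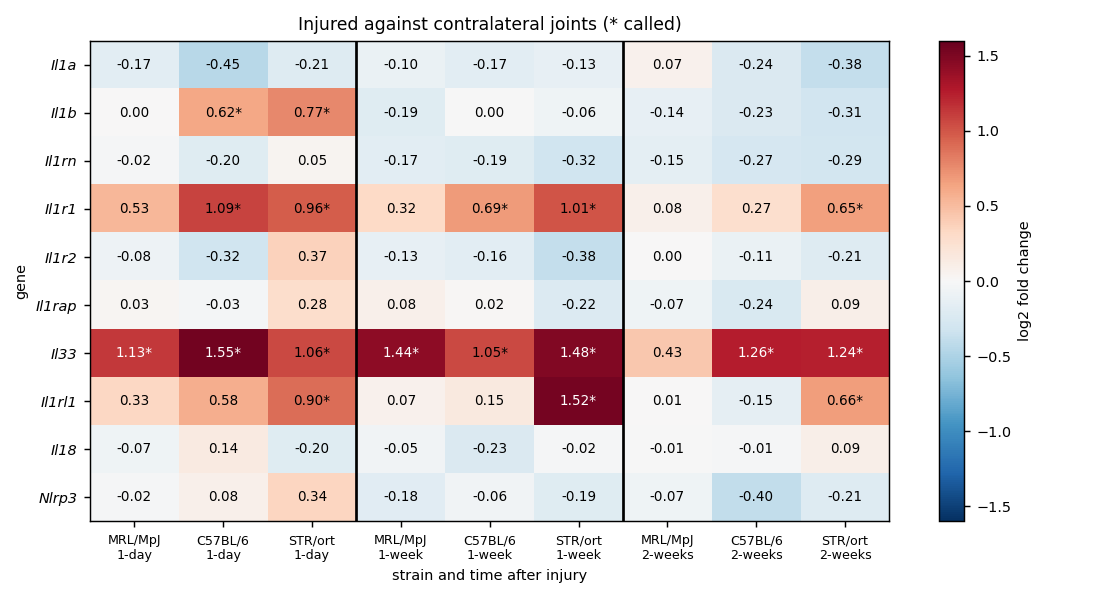
Log2 fold changes of injured over contralateral joints for the 10 members (rows) in each strain and time (columns), from edgeR, with an asterisk where the adjusted p was below 0.05 and the fold above 1.5. The Il33 row is called in 8 of 9 columns, and Il1rl1 reaches 1.52 in STR/ort at 1-week.

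Il33, the alarmin of the family, was at 11.8, 13.1, 11.8, 13.8 and 16.4 CPM in injured MRL/MpJ joints at 1-day, replicates 1 to 5 in this order, and at 8.27, 7.91, 6.05, 4.40 and 4.67 CPM in the contralateral joints. Injured C57BL/6 joints had 30.4, 16.7, 25.1, 44.5 and 25.4 CPM against 12.3, 11.4, 8.03, 6.07 and 12.2 CPM. Injured STR/ort joints had 26.6, 28.9, 24.6, 20.8 and 32.7 CPM against 5.80, 18.1, 11.96, 17.6 and 10.3 CPM. The injured and contralateral libraries did not overlap in any of the 3 strains at 1-day, with fold changes of 2.19 in MRL/MpJ (log2 fold change 1.13, SE 0.27, adjusted p = 0.011), 2.92 in C57BL/6 (log2 fold change 1.55, SE 0.24, adjusted p = 2.47e-05) and 2.08 in STR/ort (log2 fold change 1.06, SE 0.24, adjusted p = 0.00305).

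At 1-week Il33 was at 13.9, 10.2, 16.02, 13.9 and 13.1 CPM in injured and 6.11, 3.03, 5.04 and 6.11 CPM in contralateral MRL/MpJ joints. In C57BL/6 it was at 11.8, 12.4, 12.3, 12.5 and 11.6 CPM and 6.58, 7.75, 7.07, 4.37 and 4.42 CPM. In STR/ort it was at 33.1, 39.8, 35.6, 21.6 and 27.1 CPM and 13.9, 11.4, 5.18 and 15.1 CPM. Again no library of the injured joints reached down to the contralateral ones, and the fold changes were 2.71, 2.07 and 2.79 (adjusted p = 0.000178, 0.00121 and 7.47e-06). At 2-weeks Il33 averaged 13.3 ± 2.30 CPM in injured against 5.55 ± 0.922 CPM in contralateral C57BL/6 joints (log2 fold change 1.26, adjusted p = 0.000114). In STR/ort it averaged 18.2 ± 5.24 CPM against 7.75 ± 2.22 CPM (1.24, adjusted p = 2.26e-05, SD over n = 5). In MRL/MpJ, where it was at 6.54, 6.69, 4.04, 9.59 and 8.57 CPM in injured and 7.56, 4.97, 4.37, 4.36 and 5.22 CPM in contralateral joints, the libraries overlapped and the difference did not pass the test (log2 fold change 0.43, adjusted p = 0.735). All 8 calls of Il33 on injury were kept under every alternative tried and with each library left out in turn.

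**Figure D3:**
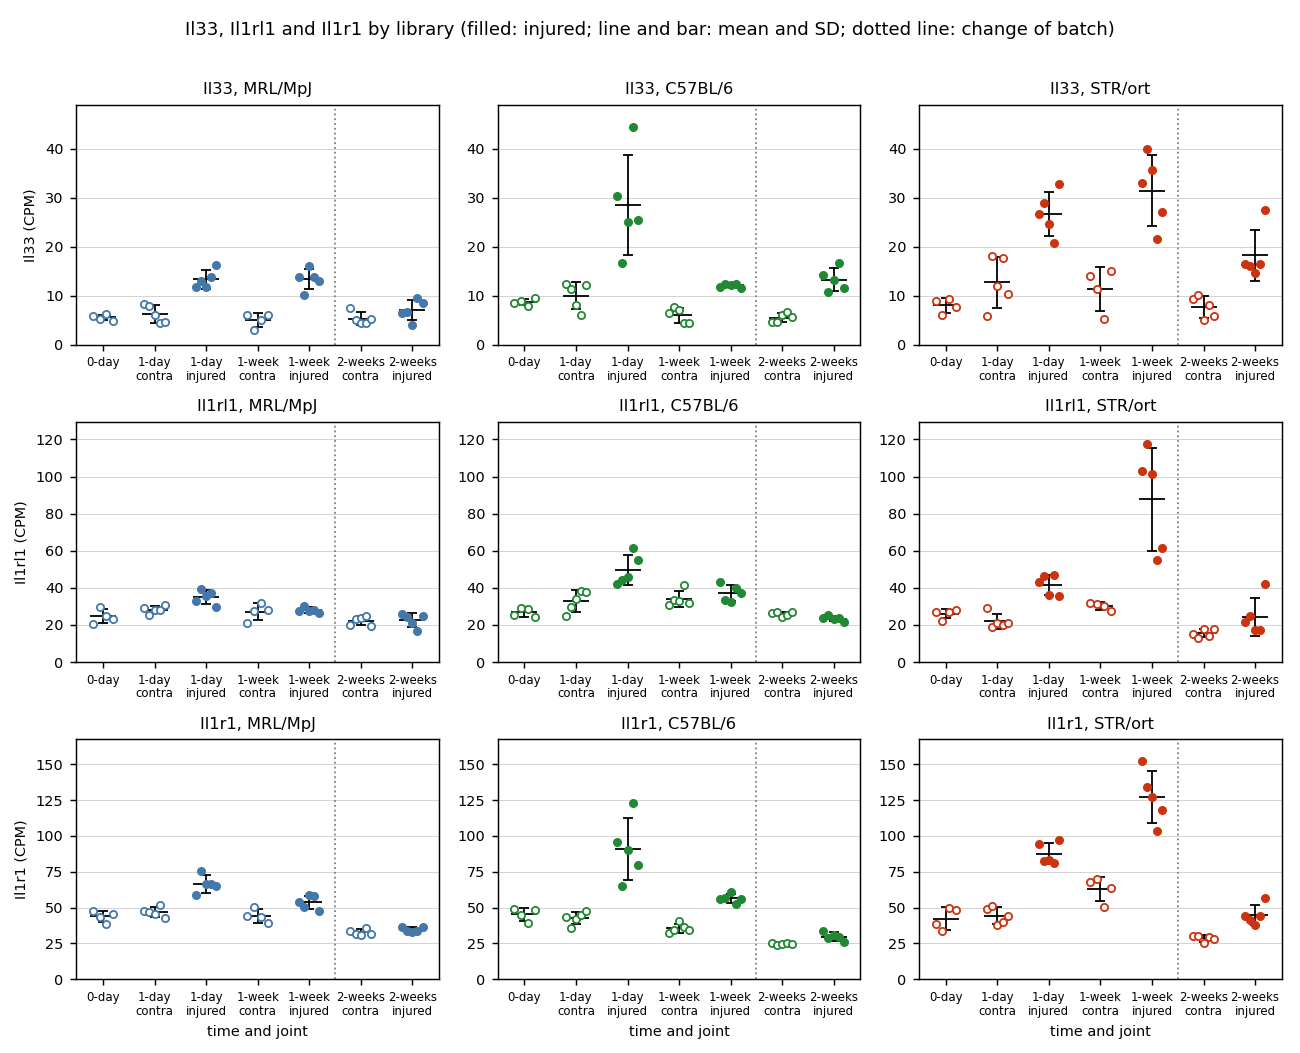
Levels of Il33, Il1rl1 and Il1r1 in CPM by strain, time and joint, with a point for each library (filled for injured joints), a line at the mean and a bar for the SD of 4 or 5 libraries; the dotted line marks the change of batch before 2-weeks. Injured joints lie above contralateral joints for Il33 in all strains at 1-day and 1-week, and the 5 injured STR/ort libraries at 1-week lie between 54.8 and 118 CPM for Il1rl1, overlapping only injured C57BL/6 joints at 1-day, which reach 61.3 CPM.

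Il1r1, the signaling receptor for IL-1α and IL-1β, rose at 1-day in C57BL/6 and STR/ort. It was at 95.9, 65.3, 90.2, 123 and 79.9 CPM in injured against 43.6, 35.96, 42.2, 44.8 and 47.5 CPM in contralateral C57BL/6 joints (log2 fold change 1.09, SE 0.11, adjusted p = 1.97e-08). In STR/ort it was at 94.1, 82.5, 83.3, 81.4 and 97 CPM against 49.1, 51.5, 37.5, 39.7 and 43.9 CPM (log2 fold change 0.96, SE 0.11, adjusted p = 2.87e-07). In MRL/MpJ the injured joints, at 58.6 to 75.8 CPM, also lay above the contralateral ones, at 42.6 to 52.1 CPM, but the log2 fold change of 0.53 (adjusted p = 0.00387) stayed under the fold threshold. At 1-week Il1r1 was at 152, 134, 127, 104 and 118 CPM in injured STR/ort joints, the group with its highest mean, against 67.7, 69.99, 50.8 and 63.6 CPM in contralateral joints (log2 fold change 1.01, SE 0.10, adjusted p = 1.18e-08). C57BL/6 joints at 1-week had 56.4 ± 2.94 CPM against 35.6 ± 3.05 CPM (SD, n = 5; log2 fold change 0.69, adjusted p = 3.95e-06). At 2-weeks it was called in STR/ort (0.65, adjusted p = 2.43e-07), where without injured replicate 5 the log2 fold change was 0.55, under the fold threshold.

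Il1rl1, which encodes the IL-33 receptor ST2, was called in the STR/ort comparisons, at all 3 times, and in 0 of the 6 of the other strains. At 1-day it was at 43.05, 46.5, 36.4, 47.01 and 35.5 CPM in injured and 29.1, 18.9, 21.1, 20.2 and 20.9 CPM in contralateral STR/ort joints (log2 fold change 0.90, SE 0.12, adjusted p = 5.89e-06). At 1-week it was at 103, 118, 102, 54.8 and 61.6 CPM in injured and 32.03, 31.4, 30.4 and 27.4 CPM in contralateral STR/ort joints, and the lowest injured library was well above the highest contralateral one (log2 fold change 1.52, SE 0.16, adjusted p = 4.05e-08). Injured C57BL/6 joints at 1-day lay at 41.9 to 61.3 CPM, above all 5 contralateral libraries, with a log2 fold change of 0.58 (adjusted p = 0.000708) just under the fold threshold; with the injured and contralateral joints of a number taken as a pair it was 0.59 (adjusted p = 0.000252) and was called. In C57BL/6 at 1-week and 2-weeks and in MRL/MpJ at all times the log2 fold changes were between -0.15 and 0.33. The call in STR/ort at 2-weeks (0.66, adjusted p = 0.00543) came with overlapping libraries, and without injured replicate 5, at 41.9 CPM against 17.2 to 24.7 CPM in the other 4, it was lost (0.38, adjusted p = 0.0335), as it was with only the compared groups in the fit (0.66, adjusted p = 0.0668). Over the 3 strains at 2-weeks, the calls fell from 4 to 2 without that library.

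Il1b rose at 1-day in C57BL/6 and STR/ort. Injured C57BL/6 joints had 17.1, 18.1, 22.6, 22.2 and 20.01 CPM and contralateral ones 11.4, 14.1, 13.6, 13.99 and 11.5 CPM, without overlap (log2 fold change 0.62, SE 0.14, adjusted p = 0.00219). Injured STR/ort joints had 46.04, 68.97, 63.6, 61.99 and 56.6 CPM and contralateral ones 26.8, 28.3, 38.5, 35.1 and 43.8 CPM, also without overlap (log2 fold change 0.77, SE 0.13, adjusted p = 9.74e-05). MRL/MpJ joints had 16.6 ± 2.58 CPM and 16.8 ± 3.57 CPM (SD, n = 5), with a log2 fold change of 0.00 and an adjusted p of 0.996. At 1-week and 2-weeks its log2 fold changes lay between -0.31 and 0.00 in all strains and were not called. The C57BL/6 call sits near the fold threshold, and scaling by the housekeeping genes (0.57), 2 RUVg factors (0.58) or leaving out any of 3 libraries (0.57 to 0.58) ended it.

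The other members were not called on injury. Il1a, Il1rn, Il1r2, Il1rap, Il18 and Nlrp3 were called in 0 of 9 comparisons each. The log2 fold changes of Il1a ran from -0.45 to 0.07, those of Il1rn from -0.32 to 0.05, those of Il1r2 from -0.38 to 0.37 and those of Il1rap from -0.24 to 0.28. Those of Il18 ran from -0.23 to 0.14, and those of Nlrp3 from -0.40 to 0.34.

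Markers of other cells differed between injured and contralateral joints in the same comparisons. At 1-week in STR/ort, the summed level of 8 of 8 fibroblast markers was 43430 CPM (from 34760 to 53910) in injured and 33590 CPM (from 24370 to 40370) in contralateral joints, with overlap. There the 5 of 5 endothelial markers were at 385 CPM (from 345 to 440.5) against 274 CPM (from 247 to 302) and the neutrophil markers at 10420 CPM (from 8311 to 11670) against 15080 CPM (from 13220 to 17900), both without overlap, and the muscle markers at 18070 CPM (from 12130 to 26980) against 31950 CPM (from 24680 to 48150), with overlap. The mast cell markers, 8 of 8 in the table with Tpsab1 at 0 in 15 libraries, were at 56.2 CPM (from 45.4 to 70.95) and 57.6 CPM (from 52.8 to 60.2), again with overlap.

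In C57BL/6 the fibroblast markers were higher in injured joints without overlap at 1-week, at 20320 CPM (from 16970 to 27590) against 12780 CPM (from 10200 to 16260), and at 2-weeks, at 27280 CPM (from 22580 to 30450) against 20350 CPM (from 19230 to 22120). In the same joints at 2-weeks 4 lists were lower after injury without overlap, the neutrophil (13590 CPM (from 11810 to 14840) against 16700 CPM (from 15360 to 18510)), monocyte and macrophage (1435 CPM (from 1302 to 1495) against 1669 CPM (from 1580 to 1765)), T cell (41.1 CPM (from 34.6 to 45.5) against 50.4 CPM (from 46.2 to 55.5)) and B cell markers (223 CPM (from 204 to 238) against 269.5 CPM (from 255 to 286)), and at 1-week the fat markers were (435 CPM (from 346 to 477) against 572 CPM (from 486 to 604)). The fibroblast markers were also higher in injured joints in STR/ort at 2-weeks, at 30000 CPM (from 25810 to 34340) against 20020 CPM (from 16540 to 21390), as were the endothelial (372 CPM (from 356 to 382) against 309.7 CPM (from 297 to 319.5)) and cartilage markers (5746 CPM (from 4581 to 6657) against 3305 CPM (from 2783 to 4020)). At 1-day these markers overlapped in all 3 strains, and their mean in injured STR/ort joints was the lower one (26660 CPM (from 24800 to 28010) against 28060 CPM (from 24990 to 31210)), while Il33, Il1r1 and Il1rl1 were called there. In C57BL/6 at 1-day the neutrophil markers were lower in injured joints (11250 CPM (from 9929 to 12760) against 15420 CPM (from 14440 to 17600)), where Il1b was higher. The part of these cells in the rises of Il33, Il1r1, Il1rl1 and Il1b was not tested.

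Whether the strains responded differently was tested as the interaction of strain and injury. At 1-week the rise of Il1rl1 was larger in STR/ort than in C57BL/6 (log2 difference of fold changes 1.38, SE 0.22, adjusted p = 0.000919), the only member called of 10 (0.491% of all genes). Against MRL/MpJ 2 of 10 members were called (0.884%), Il1rl1 (1.46, SE 0.23, adjusted p = 0.00078) and Il1r1 (0.69, SE 0.14, adjusted p = 0.00965). These 3 calls were kept under every alternative tried and with each library left out. Between C57BL/6 and MRL/MpJ at 1-week 0 of 10 were called (0%; 1 with an unadjusted p below 0.05 and 0 by DESeq2).

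At 1-day the interaction was called for 1 of 10 members between STR/ort and C57BL/6 (2.66%), the decoy receptor gene Il1r2, which was at 7.86 CPM in injured and 6.01 CPM in contralateral STR/ort joints but at 7.24 and 8.99 CPM in C57BL/6 (0.68, SE 0.20, adjusted p = 0.0465). This call lay at the threshold. It was lost with the replicate block, which shares an effect per number over all 3 strains (adjusted p = 0.0537), with RUVg (0.0538 and 0.0504 with 1 and 2 factors), with housekeeping scaling (0.066), with only the compared groups in the fit (0.0848) and without any of 13 single libraries. With joints of a number as a pair within each strain it was kept (0.68, adjusted p = 0.0291). Between STR/ort and MRL/MpJ 0 were called (0.162%; 6 with an unadjusted p below 0.05, 1 by DESeq2), and the difference for Il1b was 0.76 (adjusted p = 0.128), which became 0.77 (adjusted p = 0.0203) and was called with joints of a number as a pair within each strain. Between C57BL/6 and MRL/MpJ 0 were called too (0.318%; 2 and 0), and the differences in response of Il1r1 to MRL/MpJ were 0.56 for C57BL/6 (adjusted p = 0.114) and 0.44 for STR/ort (adjusted p = 0.453). For Il1rl1 at 1-day, STR/ort differed from C57BL/6 by 0.31 (adjusted p = 0.36) and from MRL/MpJ by 0.57 (adjusted p = 0.3), so a response particular to STR/ort was not shown for it at this time. At 2-weeks 0 members were called in all 3 interactions (0.0462%, 0.451% and 0% of all genes; 3, 3 and 1 with an unadjusted p below 0.05, 0 by DESeq2). The closest was Il1r1 between STR/ort and MRL/MpJ (0.57, adjusted p = 0.0143), under the fold threshold.

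Strains were then compared within injured joints. At 1-day, STR/ort joints had higher Il1a and Il1b than both other strains. Il1b was at 59.4 ± 8.69 CPM in STR/ort against 19.99 ± 2.43 CPM in C57BL/6 and 16.6 ± 2.58 CPM in MRL/MpJ (SD, n = 5; 2.95-fold, adjusted p = 1.71e-10, and 3.60-fold, adjusted p = 3.08e-12), with no overlap. Il1a was at 10.8, 7.27, 10.3, 11.2 and 8.02 CPM in STR/ort, at 5.83, 6.01, 6.26, 5.91 and 4.67 CPM in MRL/MpJ and at 2.68, 3.09, 1.71, 2.77 and 3.62 CPM in C57BL/6. The 3 strains were fully separated for Il1a (3.38-fold for STR/ort over C57BL/6, adjusted p = 6.03e-09; log2 fold change -1.01 for C57BL/6 against MRL/MpJ, adjusted p = 7.85e-05), but with RUVg factors STR/ort and MRL/MpJ differed by 0.18 or less (adjusted p = 0.711 with 1 factor) and with housekeeping scaling by 0.57, under the fold threshold. The bone markers were also higher in these STR/ort joints without overlap, at 2926 CPM (from 2494 to 3272) against 1919 CPM (from 1350 to 2273) in C57BL/6 and 1570 CPM (from 1377 to 1758) in MRL/MpJ. Against MRL/MpJ alone, STR/ort was separated as well for the monocyte and macrophage (2706 CPM (from 2447 to 2903) against 2209 CPM (from 1908 to 2378)), B cell (201 CPM (from 157 to 257) against 96.1 CPM (from 89.1 to 104)) and muscle markers (21500 CPM (from 14730 to 37240) against 47290 CPM (from 38430 to 69670)). STR/ort was also higher than MRL/MpJ without overlap for the cartilage and fibroblast lists and for the 2 skin markers in the table (2.19 CPM (from 1.62 to 2.76) against 1.00 CPM (from 0.759 to 1.48)). The part of these tissues in the Il1a and Il1b differences was not tested. The antagonist gene Il1rn was lower in C57BL/6 (29.4 ± 3.04 CPM) than in STR/ort (49.9 ± 8.14 CPM) and MRL/MpJ (49.6 ± 7.45 CPM), with the call for STR/ort over C57BL/6 (0.75) lost with 1 and 2 RUVg factors (0.48 with each). Il33 was lower in MRL/MpJ than in the other two (log2 fold change 1.00 for STR/ort and 1.12 for C57BL/6 over MRL/MpJ), and so was the mean of the fibroblast markers, at 17630 CPM (from 14990 to 19760) against 26660 CPM (from 24800 to 28010) and 25520 CPM (from 19510 to 28820), overlapping C57BL/6, and their part was not tested. In all 3 of 10 members were called in each comparison, against 12.4% of all genes for STR/ort and C57BL/6, 20.3% for STR/ort and MRL/MpJ and 16.3% for C57BL/6 and MRL/MpJ. The Il1a and Il1b differences were also present in contralateral joints at 1-day (1.52 and 1.42 for STR/ort against C57BL/6, 0.79 and 1.08 against MRL/MpJ), where 2, 3 and 1 of 10 members were called, against 10.5%, 22.6% and 14.8%. The other calls there were Il33 for STR/ort over MRL/MpJ (1.07, with overlap) and Il1a for C57BL/6 against MRL/MpJ (-0.74). The fibroblast markers were there at 28060 CPM (from 24990 to 31210) against 14200 CPM (from 12280 to 16160) in STR/ort and MRL/MpJ, without overlap, and their part was not tested. The 6 calls in contralateral joints became 12 with RUVg factors, where that of Il1a between STR/ort and MRL/MpJ was lost (0.22, adjusted p = 0.594), and 10 without C57BL/6 contralateral replicate 4 or without STR/ort contralateral replicate 1. With 3 members of 10 beside 20.3% and 22.6% of all genes, the counts for STR/ort and MRL/MpJ are near the background.

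**Figure D4:**
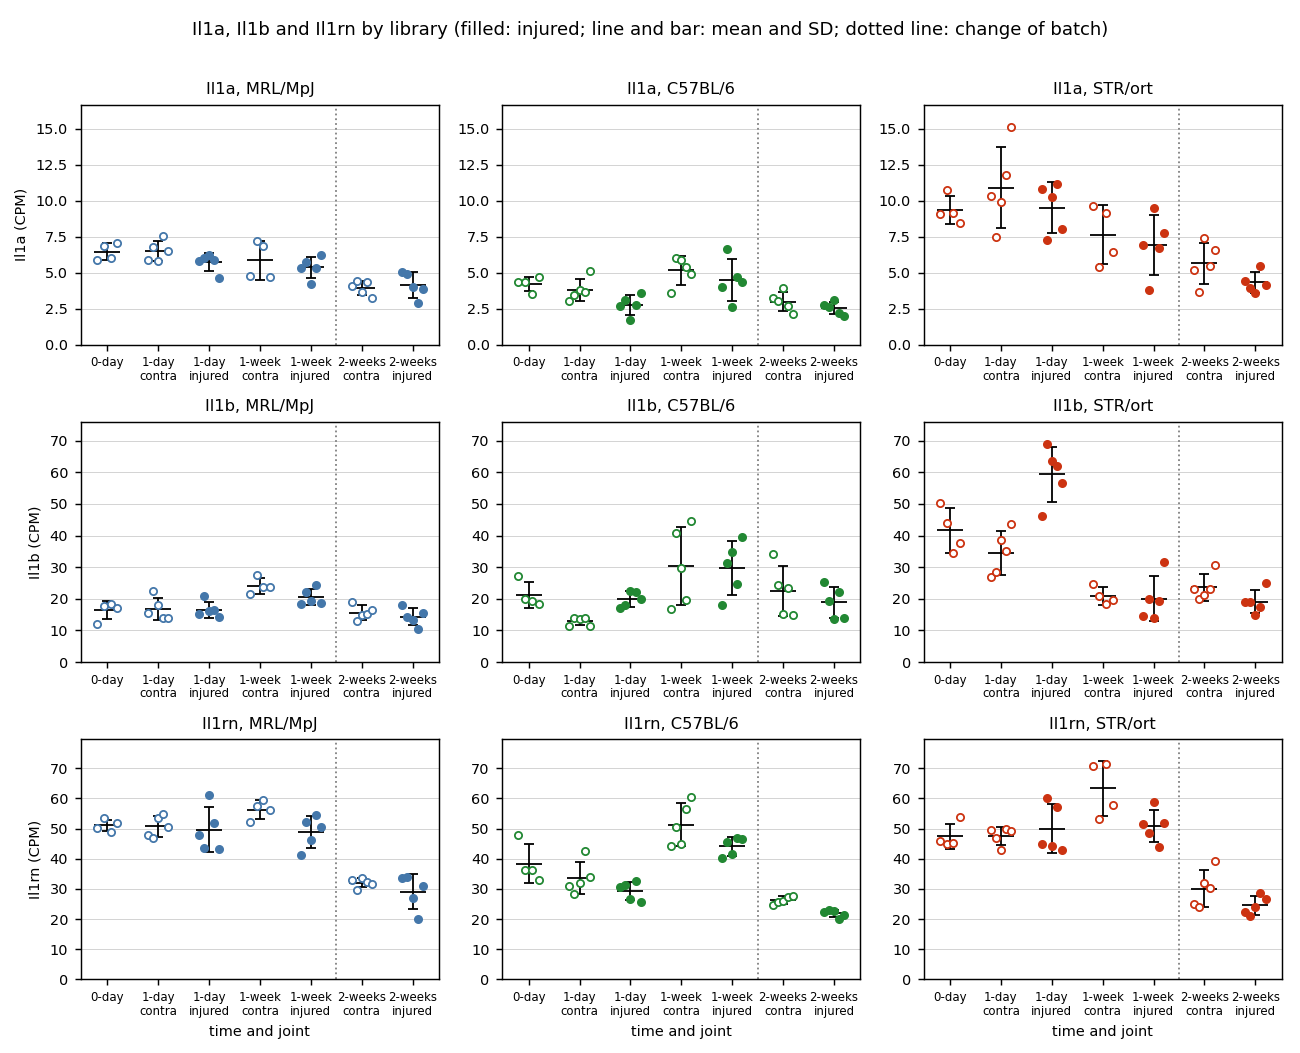
Levels of Il1a, Il1b and Il1rn in CPM by strain, time and joint, with a point for each library (filled for injured joints), a line at the mean and a bar for the SD; the dotted line marks the change of batch. Il1b in injured STR/ort joints at 1-day lies between 46.0 and 69.0 CPM and at 1-week between 14.1 and 31.8 CPM, while Il1a in STR/ort at 0-day and 1-day lies above C57BL/6 in every library.

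At 1-week injured STR/ort joints had more Il33, Il1r1 and Il1rl1 than injured joints of both other strains. Il1r1 in STR/ort was 2.23-fold that of C57BL/6 (adjusted p = 3.38e-11) and 2.33-fold that of MRL/MpJ (adjusted p = 6.68e-12). Il1rl1 was 2.33-fold and 3.10-fold, and Il33 2.56-fold and 2.29-fold, those of C57BL/6 and MRL/MpJ (adjusted p from 2.49e-10 to 5.05e-06), with no overlapping library for any of these 3 genes. In the same joints the fibroblast markers were at 43430 CPM (from 34760 to 53910) in STR/ort, 20320 CPM (from 16970 to 27590) in C57BL/6 and 18130 CPM (from 16430 to 20720) in MRL/MpJ, and the endothelial markers at 385 CPM (from 345 to 440.5), 315 CPM (from 304 to 337) and 293 CPM (from 266 to 336), STR/ort being higher without overlap for both lists. The cartilage markers were at 6490 CPM (from 4282 to 8146), 3158 CPM (from 2228 to 4926) and 2434 CPM (from 1565 to 3488), and the part of these tissues in the 3 strain differences was not tested. Il1b in STR/ort, at 14.6, 19.9, 14.1, 19.4 and 31.8 CPM, overlapped C57BL/6 at 17.9, 31.3, 34.8, 24.6 and 39.5 CPM and was lower (log2 fold change -0.59, SE 0.23, adjusted p = 0.031). Il1a was higher in STR/ort than in C57BL/6 (0.63, adjusted p = 0.0166), also with overlap, and this call was lost with housekeeping scaling (0.46, adjusted p = 0.0749), with 1 RUVg factor (0.87, adjusted p = 0.0505), with 2 RUVg factors (0.435, adjusted p = 0.451) and without C57BL/6 replicate 3 (0.52) or STR/ort replicate 3 (0.48). The Il1b call was lost with RLE factors and with DESeq2 (-0.57 with each, under the fold threshold), with 1 RUVg factor (-0.81, adjusted p = 0.0766) and without any of 7 single libraries. Il1r2 was lower in MRL/MpJ (5.90 ± 0.467 CPM) than in C57BL/6 (10.99 ± 2.25 CPM) and STR/ort (9.41 ± 2.07 CPM). The B cell markers were at 197 CPM (from 172 to 234) against 84.5 CPM (from 72.5 to 102) in C57BL/6 and MRL/MpJ, without overlap. In STR/ort they were at 94.8 CPM (from 49.2 to 132), overlapping MRL/MpJ. The Il1r2 call for STR/ort over MRL/MpJ (0.66) was lost with 2 RUVg factors (0.17, adjusted p = 0.777), with housekeeping scaling (0.52, under the fold threshold) and without STR/ort injured replicate 3 (0.54, also under it). Nlrp3 was lower in STR/ort than in MRL/MpJ (-0.61, adjusted p = 4.35e-05), but under the fold threshold without MRL/MpJ injured replicate 1 (-0.57) or STR/ort injured replicate 3 or 5 (-0.58 without either). The neutrophil markers were lower in STR/ort as well, at 10420 CPM (from 8311 to 11670) against 16420 CPM (from 13890 to 18340), and so were the T cell markers, at 37.3 CPM (from 28.3 to 49.4) against 75.1 CPM (from 66.7 to 84.3), both without overlap, and the part of these cells in the Il1r2 and Nlrp3 differences was not tested. The counts were 5, 5 and 1 of 10 against 25.1%, 29.5% and 9.47% of all genes for STR/ort with C57BL/6, STR/ort with MRL/MpJ and C57BL/6 with MRL/MpJ. Without injured STR/ort replicate 3, the calls at 1-week over the 3 comparisons fell from 11 to 7.

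In contralateral joints at 1-week, 3, 3 and 1 of 10 members were called, against 22.2%, 24.4% and 8.53%, so these counts stood near the background. Il1r1 was again higher in STR/ort than in C57BL/6 (50.8 to 69.99 against 32.3 to 40.4 CPM; log2 fold change 0.83, SE 0.10, adjusted p = 8.34e-08). Il33 in STR/ort exceeded both other strains but with overlap (0.92 and 1.15), and Il1r2 was lower in MRL/MpJ (5.94 to 7.35 CPM) than in C57BL/6 (9.01 to 15.2 CPM) and STR/ort (11.5 to 13.2 CPM) without overlap. Nlrp3 was lower in STR/ort than in MRL/MpJ (-0.60, and -0.54 and -0.48 without MRL/MpJ replicate 3 and STR/ort replicate 2) and Il1a higher than in C57BL/6 with overlap (0.59). The fibroblast markers were at 33590 CPM (from 24370 to 40370) in STR/ort, above C57BL/6 (12780 CPM (from 10200 to 16260)) and MRL/MpJ (13790 CPM (from 11820 to 18030)) without overlap, and their part was not tested. With 2 RUVg factors the 7 calls became 4, those of Il1r2 (0.56 for C57BL/6 and 0.50 for STR/ort over MRL/MpJ), Nlrp3 (-0.84, adjusted p = 0.0586) and Il1a (0.57, adjusted p = 0.317) being lost and 1 gained, and the Il1a call was also lost with RLE factors, housekeeping scaling, DESeq2 and without any of 4 single libraries.

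At 2-weeks, in the other batch, Il33 in injured joints was lower in MRL/MpJ (7.09 ± 2.13 CPM) than in STR/ort (18.2 ± 5.24 CPM; log2 fold change 1.36 for STR/ort over MRL/MpJ, adjusted p = 8.93e-07) and C57BL/6 (13.3 ± 2.30 CPM; 0.91, adjusted p = 0.000686), without overlap, and the fibroblast markers were lower there too, at 16220 CPM (from 12860 to 18210) against 30000 CPM (from 25810 to 34340) and 27280 CPM (from 22580 to 30450), and their part was not tested. Il1a was lower in C57BL/6 than in STR/ort (0.76 for STR/ort over C57BL/6) and MRL/MpJ (-0.70 for C57BL/6 over MRL/MpJ), and Il1r2 was higher in C57BL/6 (13.8 ± 3.47 CPM) than in STR/ort (8.63 ± 1.53 CPM) and MRL/MpJ (8.13 ± 1.28 CPM). The Il1r2 libraries of C57BL/6 (10.2 to 18.1 CPM) and STR/ort (7.32 to 11.2 CPM) overlapped, and without C57BL/6 injured replicate 1 the log2 fold change for STR/ort over C57BL/6 went from -0.69 to -0.57, under the fold threshold. The B cell markers were at 223 CPM (from 204 to 238) in injured C57BL/6 joints, above STR/ort (139.6 CPM (from 84.7 to 183)) and MRL/MpJ (90.8 CPM (from 51.2 to 114)) without overlap, and their part in the Il1r2 difference was not tested. Il1r1 was higher in STR/ort than in C57BL/6 (0.59, adjusted p = 8.82e-07), close to the fold threshold, and under it with the replicate block (0.58), with filterByExpr (0.58) and without any of 4 single libraries (0.49 to 0.58). Il18 was lower in STR/ort than in MRL/MpJ in injured (-0.67, adjusted p = 0.000802) and contralateral joints (-0.77, adjusted p = 0.000423), every STR/ort library lying below every MRL/MpJ library, and with 2 RUVg factors the difference in injured joints was -0.55, under the fold threshold. The counts were 3, 2 and 3 of 10 in injured joints against 10.4%, 18.9% and 11.5%, and 2, 2 and 1 of 10 in contralateral joints against 9.78%, 13.8% and 9.83%. In contralateral joints Il1rl1 was lower in STR/ort (13.1 to 17.8 CPM) than in C57BL/6 (24.3 to 27.1 CPM; log2 fold change -0.75, SE 0.17, adjusted p = 0.00102). Il1a was higher in STR/ort than in C57BL/6 with overlap (0.91), Il1b higher in STR/ort than in MRL/MpJ (0.59) and Il1r2 higher in C57BL/6 than in MRL/MpJ (0.89), where the B cell markers were at 269.5 CPM (from 255 to 286) against 94.5 CPM (from 79.9 to 111). Of these, Il1b fell under the fold threshold with 1 RUVg factor (0.49) and was lost without any of 4 single libraries, and Il1rl1 fell under it with 2 factors (-0.50). Without C57BL/6 contralateral replicate 3 or 5, or STR/ort contralateral replicate 3, the 5 calls there became 8. These strain comparisons use the same libraries as the injury comparisons of their time.

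Over all 12 marker lists, between 0 and 9 were separated without overlap in the 21 comparisons of strains. The number was 0 between STR/ort and C57BL/6 in contralateral joints at 1-day, where Il1a and Il1b were called, and 9 between the same strains in injured joints at 1-week. STR/ort and MRL/MpJ were separated for the fibroblast markers in all 7 of their comparisons and for the cartilage and bone markers in 6, C57BL/6 and MRL/MpJ for the B cell markers in 7. In the 9 comparisons of injured with contralateral joints the number was 0 to 5, and it was 0 in the 3 of MRL/MpJ and in STR/ort at 1-day, where 4 members were called. Overlap of summed levels does not show equal amounts of a cell type, and the part of these cells in the calls was not tested.

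Times were compared within a strain and within batch 1. Contralateral joints were first set against 0-day joints, with edgeR calls of 0 members in MRL/MpJ and C57BL/6. MRL/MpJ had 0 calls at 1-day (0.156% of all genes; 1 member with an unadjusted p below 0.05) and 0 at 1-week (0%; 2). C57BL/6 had 0 at 1-day (0.0462%; 3) and 0 at 1-week (5.54%; 5). STR/ort had 0 at 1-day (8.89%; 3) and 2 of 10 at 1-week (12.6%), and DESeq2 gave 0 calls in the 5 comparisons with 0 from edgeR. In STR/ort, Il1b fell from a mean of 41.6 CPM at 0-day to 20.9 CPM in contralateral joints at 1-week (log2 fold change -1.02, SE 0.20, adjusted p = 0.000524), while Il1r2 rose from 4.52 to 12.2 CPM (log2 fold change 1.42, SE 0.18, adjusted p = 1.1e-05), both without overlap. Between the same groups, without overlap, the muscle markers went from 69470 CPM (from 67020 to 74840) to 31950 CPM (from 24680 to 48150), the monocyte and macrophage markers from 2062 CPM (from 1708 to 2415) to 3035 CPM (from 2748 to 3374) and the fibroblast markers from 20430 CPM (from 19000 to 22660) to 33590 CPM (from 24370 to 40370). The bone markers were higher at 1-week without overlap too, and the part of these tissues in the changes of Il1b and Il1r2 was not tested. With 1 or 2 RUVg factors, 4 and 5 members were called over these 6 comparisons in place of 2.

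Between 1-day and 1-week, injured C57BL/6 joints were called for 4 of 10 members (4.35% of all genes), injured STR/ort joints for 2 (13%) and injured MRL/MpJ joints for 0 (3.52%; 4 with an unadjusted p below 0.05, 0 by DESeq2). In C57BL/6, Il33 and Il1r1 fell (log2 fold change -1.25, adjusted p = 7.02e-05, and -0.69, adjusted p = 6.73e-05), and every library at 1-week lay below every library at 1-day. The Il1r1 call was lost with housekeeping scaling (-0.54) and without C57BL/6 1-day injured replicate 4 (-0.56). Il1a and Il1r2 were called higher at 1-week with overlap (0.68 and 0.61), but Il1a was not called with 1 RUVg factor (adjusted p = 0.0729), with only the groups compared (adjusted p = 0.0548) or without any of 5 single libraries, and Il1r2 not with 1 RUVg factor (0.56) or without any of 3 libraries. Between these C57BL/6 groups the monocyte and macrophage markers went from 2675 CPM (from 2420 to 2847) to 2142 CPM (from 2029 to 2235) and the fat markers from 585 CPM (from 531 to 680.0) to 435 CPM (from 346 to 477). The neutrophil markers went from 11250 CPM (from 9929 to 12760) to 13500 CPM (from 12840 to 14330), the T cell markers from 49.98 CPM (from 42.7 to 60.0) to 68.7 CPM (from 65.3 to 72.2), the B cell markers from 144 CPM (from 128 to 165) to 197 CPM (from 172 to 234) and the endothelial markers from 282 CPM (from 258 to 300.3) to 315 CPM (from 304 to 337), all 6 lists without overlap. In STR/ort, Il1b fell from a mean of 59.4 to 19.9 CPM (log2 fold change -1.56, SE 0.18, adjusted p = 3.87e-07), while Il1rl1 rose from 41.7 to 87.8 CPM (log2 fold change 1.08, SE 0.16, adjusted p = 1.18e-05). There the neutrophil markers went from 14170 CPM (from 12690 to 15410) to 10420 CPM (from 8311 to 11670), the 4 of 4 B cell markers from 201 CPM (from 157 to 257) to 94.8 CPM (from 49.2 to 132), the fibroblast markers from 26660 CPM (from 24800 to 28010) to 43430 CPM (from 34760 to 53910) and the endothelial markers from 304 CPM (from 280.1 to 317) to 385 CPM (from 345 to 440.5), all without overlap. The part of these cells in the changes between times was not tested. For Il33 and Il1r1 the STR/ort joints did not show the fall of C57BL/6 between these times (0.24 and 0.54, adjusted p = 0.493 and 0.000755), and this difference between strains over time was not tested.

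A pair of raw count ratios within a library, which do not depend on library scaling, set each inhibitor beside its counterpart, the antagonist gene Il1rn to Il1b and the decoy gene Il1r2 to the receptor gene Il1r1. They were compared by two-sided exact permutation tests with Benjamini-Hochberg adjustment over 24 tests, of which 8 passed. At 1-day the Il1rn to Il1b ratio was 1.79, 1.73, 1.18, 1.47 and 1.28 in injured and 2.71, 2.01, 2.34, 3.03 and 2.96 in contralateral C57BL/6 joints (log2 difference -0.81, exact p = 0.00794, adjusted p = 0.0272). In STR/ort it was 0.976, 0.872, 0.696, 0.925 and 0.758 against 1.86, 1.65, 1.11, 1.42 and 1.12 (log2 difference -0.74, exact p = 0.00794, adjusted p = 0.0272). The ratio thus fell in both strains without overlap, while MRL/MpJ stayed at geometric means of 2.99 and 3.05 (adjusted p = 0.929, exact test). In STR/ort every injured joint had fewer reads of Il1rn than of Il1b. These genes have 5535 and 1907 exon bases, so a ratio of 1 does not mark equal amounts of transcript. At 0-day the geometric mean ratio was 3.14 in MRL/MpJ, 1.82 in C57BL/6 and 1.15 in STR/ort with no overlap between strains, but with 4 libraries each the exact test cannot go below p = 0.0286, and the adjusted p was 0.0527.

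The Il1r2 to Il1r1 ratio fell with injury in all 3 strains at 1-day, from 0.209 to 0.0815 in C57BL/6 (log2 difference -1.36, exact p = 0.00794, adjusted p = 0.0272), from 0.136 to 0.0886 in STR/ort (log2 difference -0.62, adjusted p = 0.0272, exact test) and from 0.164 to 0.110 in MRL/MpJ, there with overlap (-0.58, adjusted p = 0.0476, exact test). At 1-week it fell in C57BL/6 (-0.86) and in STR/ort, from 0.196 to 0.0737 (-1.41), and at 2-weeks in STR/ort (-0.85), each without overlap and at the smallest exact p that 5 libraries against 4 or 5 can give, 0.00794. Tested as pairs of joints with the same replicate number, 0 of these differences passed, since 5 pairs cannot reach the threshold, and without MRL/MpJ contralateral replicate 2 of 1-week the 8 that passed became 14. Of the single genes at 1-day, Il1b and Il1r1 were called in C57BL/6 and STR/ort, while Il1rn and Il1r2 were called in 0 of 9 injury comparisons.

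**Figure D5:**
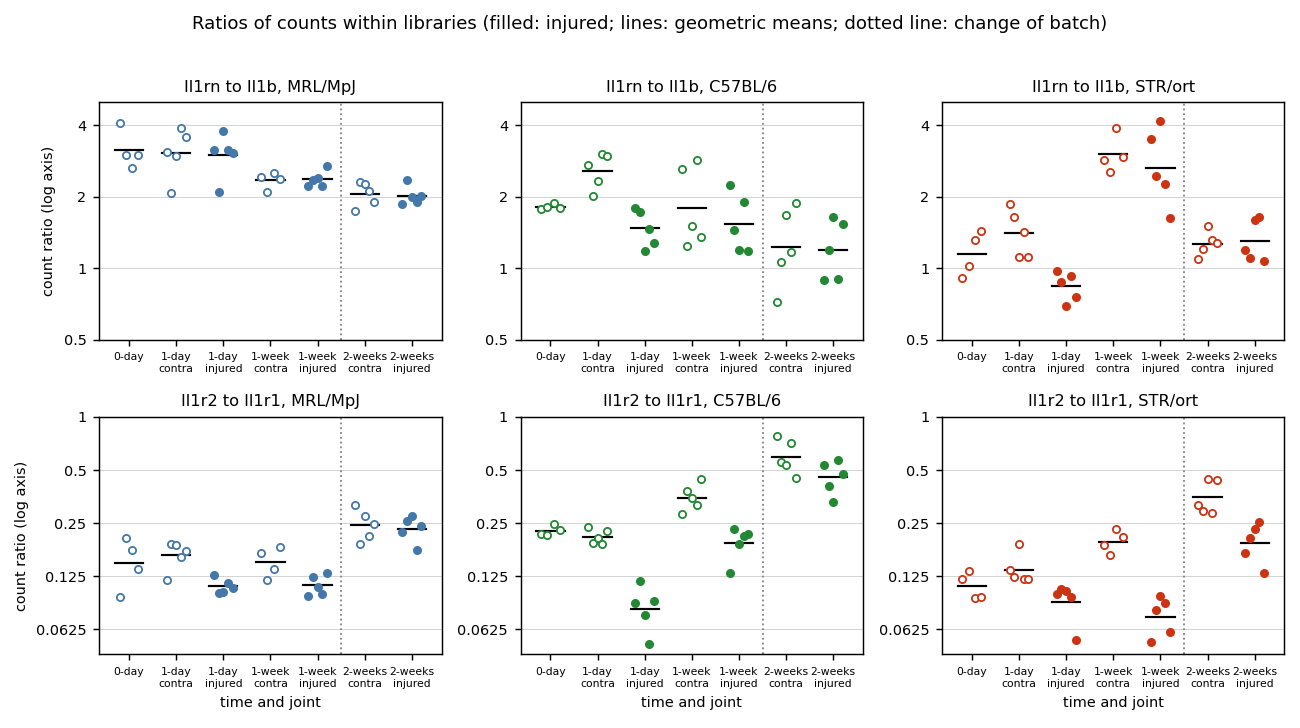
Ratios of raw counts within each library, Il1rn to Il1b above and Il1r2 to Il1r1 below, on log axes by strain, time and joint, with a point for each library (filled for injured joints) and a line at the geometric mean. The Il1rn to Il1b ratio lies between 0.696 and 0.976 in injured STR/ort joints at 1-day, and the Il1r2 to Il1r1 ratio of injured STR/ort joints at 1-week averages 0.0737 against 0.196 in contralateral joints.

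Other genes of the pathway were followed as lists. Of 11 signaling genes (Myd88, Irak1 to Irak4 and others), 0 were called in any of the 9 injury comparisons, with list medians of the log2 fold change from -0.11 to 0.02, against -0.03 to 0.01 over all genes. Of 9 inflammasome and processing genes, 1 rose at 1-day in C57BL/6 (5.6% of all genes) and in STR/ort (4.31%), the sensor gene Nlrp1b (0.74, adjusted p = 0.0169, and 0.89, adjusted p = 0.00716), and 1 fell, Nlrp1a in STR/ort at 1-week (-0.63, adjusted p = 0.0059). At 0-day Nlrp1b was higher and Nlrp1a lower in MRL/MpJ than in the other strains (Nlrp1b 10.7 CPM in MRL/MpJ against 2.53 in C57BL/6; Nlrp1a 1.61 against 7.87), and these near copies may share reads, so each is uncertain. The adaptor gene Pycard and the ATP-gated channel gene P2rx7 were also lower in MRL/MpJ than in C57BL/6 at 0-day (Pycard 1.08 and P2rx7 0.82 for C57BL/6 over MRL/MpJ). Of 6 further receptor genes 4 were in the table, and Il1rl2, the IL-36 receptor, rose in STR/ort at 1-week (0.75, adjusted p = 0.00946), while of 10 further ligand and binding protein genes 2 were, and Il1f9, an IL-36 ligand, fell there (-0.63, adjusted p = 0.000389).

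Known targets of IL-1 in joint cells, 10 genes that also respond to other cytokines, were called in larger numbers. At 1-day 7 of 10 rose in each strain, against 2.02%, 5.6% and 4.31% of all genes called in MRL/MpJ, C57BL/6 and STR/ort, namely Il6, Ptgs2, Saa3, Mmp3, Adamts4, Cxcl1 and Ccl2, with a median log2 fold change over the list of 2.33 in MRL/MpJ, 2.11 in C57BL/6 and 2.11 in STR/ort. The median over all genes was 0.01, -0.02 and -0.02 in these comparisons. Of the members, Il33 alone was called in MRL/MpJ at that time. Mmp3, a matrix-degrading enzyme, went from 3.21 to 16.9 CPM in MRL/MpJ and from 20.8 to 85.8 CPM in STR/ort (Mmp3 log2 fold change 2.41 and 2.04), and the chemokine gene Ccl2 from 0.886 to 10.7 and from 2.77 to 33.4 CPM (Ccl2 3.65 and 3.52). At 1-week 3 rose in MRL/MpJ (3.13% of all genes) and in C57BL/6 (5.82%), Ptgs2, Mmp3 and Adamts4, and 6 in STR/ort (9.21%), where Lcn2, also a neutrophil gene, fell (-0.64, adjusted p = 3.61e-05). At 2-weeks Mmp3 alone rose in MRL/MpJ, Ptgs2 and Mmp3 in C57BL/6 and 6 of 10 in STR/ort, against 1.16%, 2.95% and 4.66%. At 0-day 5 of 10 were higher in STR/ort than in C57BL/6 and 7 than in MRL/MpJ (13.8% and 14.8% of all genes called; list medians 1.26 and 2.24, against -0.06 and 0.01 over all genes), among them Ptgs2, at 10.6 CPM in STR/ort, 2.35 in C57BL/6 and 0.720 in MRL/MpJ.

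Across the 21 group means, the genes whose levels ranked most like those of Il33 were Vcan, a matrix proteoglycan (Spearman rho 0.943), Bmper (0.943) and Timp1, an inhibitor of metalloproteinases (0.939), among 14407 genes. Those most like Il1rl1 were Canx (0.913), Nudcd1 (0.904) and Abce1 (0.897), and those most like Il1b were Fcrla (0.766), Apol10b (0.765) and Gm8221 (0.760). Among the members, the highest values were 0.751 for Il1rn and Il1rap, 0.744 for Il1r1 and Il1rl1, 0.734 for Il1a and Il1rn and 0.700 for Il1r1 and Il33. Il33 and its receptor gene Il1rl1 reached 0.475. The group means share strains, times and libraries and differ in batch at 2-weeks, so these values describe the groups only and hold the batch shift as well. Beside the cell markers, the 2 batches were taken apart. The rho of Il33 with the muscle markers was -0.80 over the 15 groups of batch 1 but 0.83 over the 6 groups of 2-weeks, and that of Il1r1 was -0.75 and 0.54, so neither kept its sign. With the fibroblast markers Il33 had a rho of 0.67 and 0.83, and Il1r1 of 0.53 and 0.09. Nlrp3 had a rho of 0.88 and 1.00 with the T cell markers and of 0.82 and 0.77 with the neutrophil markers.

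Over all 480 tests, 86 calls were made, 19 of them for Il33, 13 for Il1a, 12 each for Il1b and Il1r2, 11 for Il1r1 and 9 for Il1rl1. Il18 and Nlrp3 had 4 each, Il1rn had 2, and Il1rap, the subunit shared by the IL-1 and IL-33 receptors, had 0, its log2 fold changes running from -0.38 to 0.38. The share of all genes called ran from 0% to 29.5% between comparisons, so these counts mix unlike backgrounds. Of the 86 calls, 58 were kept under every alternative and with each library left out, 18 of 19 for Il33 but 5 of 12 for Il1r2 and 1 of 4 for Il18.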

How the data were processed

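RNA was sequenced from 100 mouse knee joints. The authors aligned reads with TopHat2 2.0.11 to mm10 and counted them per RefSeq gene with featureCounts, and the deposited values are these raw counts (17313 entries). The strand setting of the counting is not given in the sources used here. The authors' own tests added factors of unwanted variation estimated from housekeeping genes, whose number is not given in the sources used here. That step is tried as an alternative.

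Groups, replicate numbers and batch come from the labels. After 3 repeated entries were dropped, 17310 genes with at least 2 counts in at least 5 libraries were tested with edgeR 4.0.16 in R 4.3.3 (TMM factors, quasi-likelihood F-test, Benjamini-Hochberg adjustment over all genes). One model was fitted per time point over all strains, and one per strain within batch 1 for times. The SE is the log2 fold change divided by the root of F. For levels, CPM were computed with TMM factors across the 100 libraries. Count ratios had 0.5 added. Alternatives were DESeq2 1.42.0, RLE factors, scaling by 25 housekeeping genes, RUVg-type factors, other filters, replicate blocks, fits of the compared groups alone and leaving out each library. The test was checked on simulated counts.

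All 10 members were described in every group, with statistics where called, other pathway genes by counts, and genes most like a member by Spearman's rho over group means. The members, gene lists and tests were chosen with earlier results of these data known. The block of joints within a strain was added after the data were seen. Of 190 library pairs within groups, 0 were identical. The replicate number pairs animals at 2-weeks, by the labels. The main tests did not use this pairing, and with the block within strain the 4 calls on injury at 2-weeks were kept. There the deviations of paired joints correlated with a median r of 0.213 (-0.279 to 0.449). At 1-week every STR/ort pair exceeded 0.1.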

Additional observations from a re-analysis of the deposited data

Results flagged for a closer look

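Single libraries lay apart from the rest of their group in 14 of 210 groups of 4 or 5 (21 groups for each of 10 genes), by the gap to the nearest library over the range of the group (Dixon's test at 95%). Chance alone gives about 1 in 20 such groups, or 10.5 of 210. Among STR/ort libraries, Il33 was at 27.52 CPM in injured replicate 5 of 2-weeks, against a median of 16.24 CPM in the others, and the Il1r1 and Il1rl1 calls on injury at 2-weeks depend on the same library. Il1b was at 30.84 CPM in contralateral replicate 5 of 2-weeks (22.14 in the others), Il1rn at 53.75 CPM in replicate 4 of 0-day (45.21), Il1rap at 20.11 CPM in injured replicate 2 of 1-week (17.86), Il1rl1 at 29.08 CPM in contralateral replicate 1 of 1-day (20.52) and Il18 at 7.603 CPM in injured replicate 2 of 1-day (6.411).

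Among MRL/MpJ libraries, Il1a was at 4.665 CPM in injured replicate 5 of 1-day (5.96 in the others), Il1rap at 22.73 CPM in replicate 3 of 0-day (18.57), Il33 at 7.56 CPM in contralateral replicate 1 of 2-weeks (4.665), Il18 at 12.36 CPM in injured replicate 1 of 1-week (9.397) and at 12.7 CPM in contralateral replicate 2 of 1-week (10.06), and Nlrp3 at 15.41 CPM in contralateral replicate 4 of 2-weeks (12.81). Among C57BL/6 libraries, Il1b was at 27.16 CPM in replicate 1 of 0-day (19.27) and Il1rl1 at 41.54 CPM in contralateral replicate 4 of 1-week (32.34).

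The response to injury differed between strains by the interaction test of edgeR for 3 genes. The log2 difference of fold changes was 1.375 for Il1rl1 between STR/ort and C57BL/6 and 1.455 between STR/ort and MRL/MpJ at 1-week, 0.6913 for Il1r1 between STR/ort and MRL/MpJ at 1-week, and 0.6849 for Il1r2 between STR/ort and C57BL/6 at 1-day.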

How the results depend on the processing

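Of 86 calls, 84 were kept with RLE factors, 79 with housekeeping scaling, 75 and 68 with 1 and 2 RUVg factors, 84 with DESeq2, 86 without a filter, 85 with filterByExpr, 84 with the replicate block and 83 with only the groups compared, and 0 changed direction. With 2 RUVg factors, calls between strains at 0-day went from 10 to 5, in contralateral joints from 6 to 12 at 1-day (12 with 1 factor) and from 7 to 4 at 1-week, and against 0-day from 2 to 5 (4 with 1 factor). The single interaction call at 1-day became 0 with housekeeping scaling, RUVg or only the groups compared, 2 with DESeq2 and 2 with the replicate block within strain. That block kept all 22 calls it could be fitted for and added 2. The interaction calls at 2-weeks went from 0 to 1 with housekeeping scaling. The replicate block lost 2 calls, and the 8 count ratio differences became 0 with joints as pairs (lowest adjusted p 0.136, exact test), a size at which 5 pairs cannot pass. The cause of the other changes was not tested.

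With single libraries left out there were 6 to 10 calls in contralateral joints at 1-day, 7 to 11 in injured joints at 1-week, 2 to 4 on injury and 4 to 8 in contralateral joints at 2-weeks, 0 to 2 and 0 to 1 interaction calls at 1-day and 2-weeks, and 6 to 14 ratio differences. At 1-day and 1-week replicate numbers are only shared, with median correlations of 0.108 and 0.162. Low counts limit Il1a most.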
